A study of Mus musculus with 24 samples.

Results

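Granzymes, the proteins that release them and the factors that switch them on were followed in mouse blood through 10 genes: *Gzma*, *Gzmb*, *Gzmk*, *Gzmm*, *Prf1*, *Nkg7*, *Eomes*, *Tbx21*, *Ifng* and *Ccl5*. A probe belonged to the set where its gene name in the array files was one of these symbols, which gave 13 of 39429 probes and 10 of 29742 gene names. Blood was taken from male C57BL/6J mice by cardiac puncture into PAXgene RNA stabilization solution, and total RNA was labelled with Cy3 and hybridised to 1-colour Agilent arrays, with a separate array for each mouse. There were 6 mice in each of 4 groups, namely young unirradiated, young irradiated, old unirradiated and old irradiated. Young mice were 2 months old and old mice 21 months, irradiated mice received 4 Gy of x-rays to the whole body, and all blood was collected 24 h after exposure or, for mice given 0 Gy, at the matched time. Blood RNA comes from mixed cells, so fewer cells of a type and less RNA per cell cannot be told apart in any value below.

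Cytotoxic lymphocytes, chiefly natural killer (NK) cells and CD8 T cells, kill by releasing granules in which perforin opens the membrane of the target cell and granzymes, a family of serine proteases, enter to cleave proteins inside it. The T-box transcription factors T-bet (gene *Tbx21*) and eomesodermin (gene *Eomes*) drive this program, together with interferon gamma (gene *Ifng*). Resting NK cells already carry much *Gzma* and *Prf1* transcript, whereas T cells gain most of the program when they become effector or memory cells.

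A level is the log2 of a probe's background-subtracted signal minus the median of that quantity over the 43020 spots of the array that are not controls, so 0 is the median spot, and each probe is compared only with itself. A gene was called changed where limma's p was under 0.005 and also, adjusted by Benjamini and Hochberg over the 17802 genes tested, under 0.05, and all 10 members were among those genes. Of the 13 member probes 11 were well above background on all 24 arrays, and no member probe was saturated. The array median itself was low, between 8.66 and 44.8 signal units, and 43.9 to 64.4% of spots were well above background. Each slide held mice of 1 age, and young and old arrays were scanned on different days, so age cannot be told apart from slide and scan day. Within each age, 1 slide held 2 unirradiated and 2 irradiated mice, and differences within that slide are given beside the pooled ones. In 4 pairs of arrays of the same group (young irradiated mice 2 and 5 and mice 1 and 6, old unirradiated mice 1 and 6, old irradiated mice 4 and 6) the spread of the differences between the arrays was 1.24 to 1.40 times that of repeated spots on 1 array, against a median of 3.55 over the 60 pairs. They differed by more than spot noise, but that noise is measured within 1 array, so the ratio cannot show whether a pair came from separate mice. They were kept as separate mice by their labels, and results that change when each pair is averaged are given with the averaged value.

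At 24 h after irradiation of young mice, *Gzma* and *Gzmb* rose and *Gzmm* fell, and the other 7 members were not called. The 2 members called higher stand against 14.3% of all genes called higher, and the 1 called lower against 21.1% called lower. *Gzma* was higher in every irradiated mouse than in any unirradiated one, as were 9.45% of all genes, and *Gzmm* was lower in every irradiated mouse, as were 15.2% of all genes. The members' median log2 difference was 0.62, while that of all genes was -0.20, and 8 of 10 members lay above the all-gene median. The count of 3 became 5 without young irradiated mouse 4, with *Nkg7* and *Ifng* added, and 6 with slide as a random block, with *Nkg7* (0.73), *Tbx21* (0.80) and *Ifng* (1.13) added. With that block the share of all genes called in either direction rose as well, from 35.4 to 49.8%. In old mice, irradiation raised *Ifng* and lowered *Gzmm*, against 7.49% of all genes called higher and 17.4% called lower. *Gzmm* was again lower in every irradiated mouse, as were 16.7% of all genes. The members' median log2 difference in old mice was 0.25 and that of all genes -0.25.

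Between old and young unirradiated mice *Gzmk*, *Gzmm*, *Eomes* and *Ccl5* were called higher in old mice and none was called lower, against 48.4% of all genes called higher and 15.4% called lower. *Gzmm* was higher in every old mouse than in any young one, as were 37.4% of all genes. Between old and young irradiated mice 1 member, *Gzmk*, was called higher, against 1.4% of all genes called higher and 0.595% called lower, and it was higher in every old mouse, as were 4.45% of all genes. Both irradiation comparisons share their control groups with the age comparisons, so the 4 counts are not independent. The difference between the responses of old and young mice was called in none of the members and in 0% of all genes by limma, with an unadjusted p below 0.05 in 2 members and 4191 genes. Those 2 members were *Gzmm*, whose fall was 2.19 log2 units deeper in old mice (SE 0.997, adjusted p = 0.192), and *Eomes*, whose log2 response was lower in old mice by 1.36 (SE 0.64, adjusted p = 0.202). The random variance test and limma with a variance trend also called no member. On the slides that held both groups, the difference of 2 irradiated from 2 unirradiated mice had the same sign as the pooled one in all 10 members at both ages. Those mice are also part of the pooled difference, so the 2 signs are not independent. For *Ccl5*, with pooled differences of 0.09 in young and -0.01 in old mice, the sign says little.

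**Figure D1:**
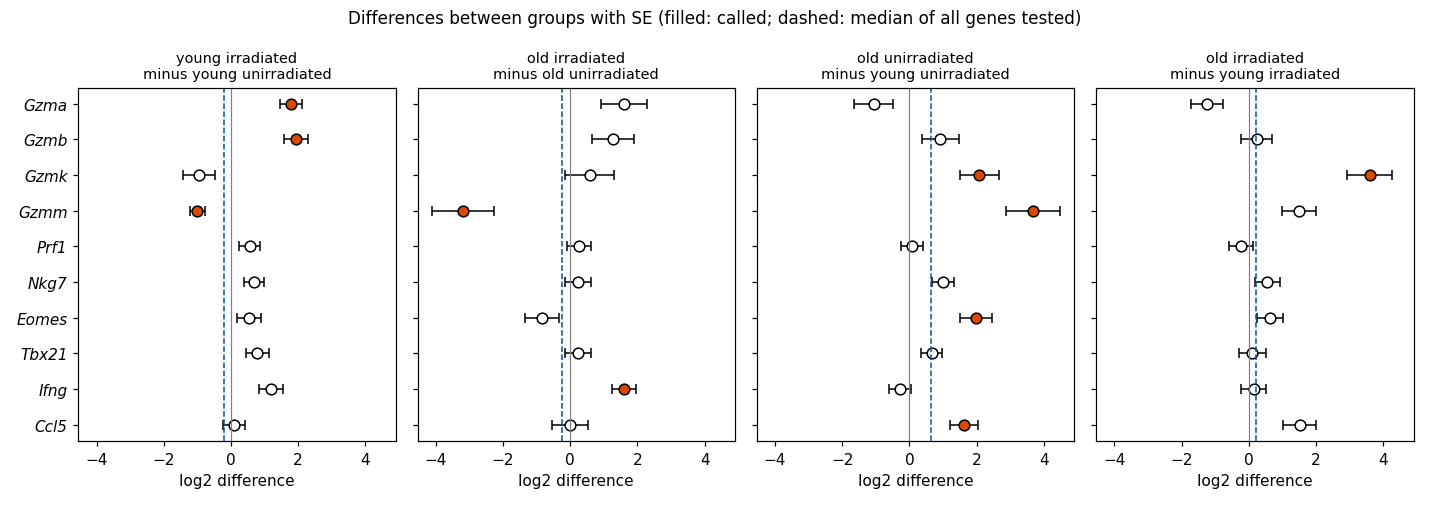
Log2 difference with its standard error for each member in the 4 comparisons of 6 with 6 mice, with filled circles for called genes and a dashed line at the median of all genes tested. The plot of differences shows *Gzma* and *Gzmb* furthest to the right in young mice after irradiation, *Gzmm* furthest to the left in old mice after irradiation, and most members right of 0 between ages.

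The age comparison of unirradiated mice depended on how arrays were put on a common scale. With the array median at 0 the median gene was 0.63 log2 units higher in old mice, whereas under the other 6 scalings tried it was between -0.04 and 0.16 higher. Of the genes called, 75.8% were higher in old mice with the array median, and 12.8 to 47.0% under the other 5 scalings that called any gene. Relative to the median gene, *Gzmm* remained 2.32 to 3.16 higher in old mice under all 7 scalings and was called in 6 of them. *Gzmk*, *Eomes* and *Ccl5* were higher in old mice under all 7, by 1.12 to 1.56, 1.12 to 1.47 and 0.99 to 1.16 relative to the median gene, and each was called in 1 of them, the array median. *Gzma* was lower in old mice under all 7, by 1.06 to 1.71 log2 units, and was called lower in 1, the scaling on spike-in controls (log2 difference -1.63, adjusted p = 0.0140).

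**Figure D2:**
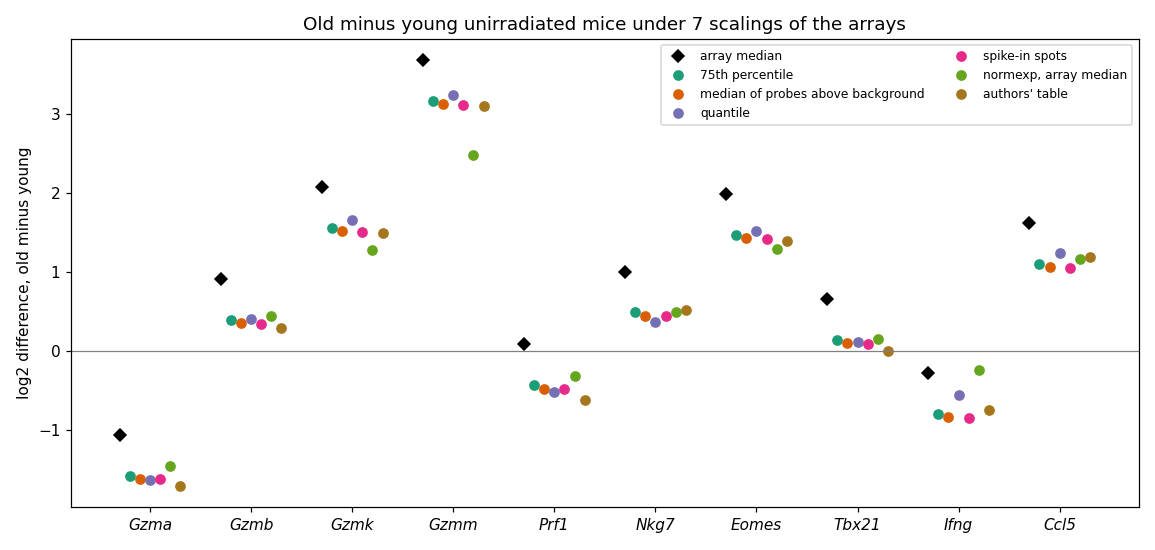
Log2 difference between old and young unirradiated mice for each member under 7 scalings of the arrays, with diamonds for the array median used in the text and circles for the others. In the plot of scalings the diamonds lie highest for every member except *Ifng*, *Gzma* lies below 0 throughout, and *Prf1* and *Tbx21* change sign.

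*Gzma* encodes granzyme A, a protease that cleaves after basic residues (probe A_55_P2094060, chr13:113884035-113884094, minus strand, in the mm9 coordinates of the array design that are used for all probes). Its level in young unirradiated mice ran from 7.78 through a median of 8.62 to 9.22, and in young irradiated mice from 9.36 through 10.47 to 11.14. Every irradiated young mouse was above every unirradiated one. The log2 difference of means was 1.78 (SE 0.33, 3.43-fold, adjusted p = 0.000885), it was 1.81 on the shared slide, and it was called under all 7 scalings, at 1.57 to 2.32. In old mice *Gzma* ran from 5.82 through 7.38 to 9.35 without irradiation and from 7.90 through 9.52 to 10.09 with it. The old groups overlapped, with 3 of 6 irradiated mice above the highest unirradiated one. That log2 difference, 1.60 (SE 0.67, adjusted p = 0.0799), was not called, and it was 2.99 on the slide that held both groups. Old and young responses of *Gzma* differed by -0.18 (SE 0.78, adjusted p = 0.890). The order of the group means was young irradiated, old irradiated, young unirradiated and old unirradiated, and neither age contrast was called (log2 differences -1.06 and -1.24, adjusted p = 0.110 and 0.152).

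*Gzmb* encodes granzyme B, which cleaves after aspartate and activates caspases in the target cell (probe A_51_P333274, chr14:56877916-56877975, minus strand). It ran from 3.53 through 3.71 to 4.58 in young unirradiated mice and from 4.25 through 5.92 to 6.70 in young irradiated mice. All irradiated mice except mouse 4, which lay within the range of the unirradiated mice, were above the highest of these. The log2 difference was 1.94 (SE 0.36, 3.84-fold, adjusted p = 0.000902) and 2.28 on the shared slide. In old mice the range was 2.91 through 4.86 to 6.41 without irradiation, as wide as both young groups together, and 5.06 through 5.83 to 6.99 with it. The old groups overlapped and the log2 difference of 1.27 (SE 0.62, adjusted p = 0.128) was not called. It was called without old unirradiated mice 1 and 6, whose arrays are one of the very similar pairs (log2 difference 2.07, adjusted p = 0.0323). Those 2 mice had the highest *Gzmb* of their group, so leaving them out raises the difference by construction. With each very similar pair averaged it was not called. Neither age contrast was called.

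*Gzmm* encodes granzyme M, a protease that prefers to cleave after methionine and leucine and is typical of NK and other innate lymphocytes (probe A_55_P2150757, chr10:79157946-79158005, plus strand). It ran from 2.29 through 2.70 to 2.95 in young unirradiated mice and from 1.12 through 1.65 to 2.24 in young irradiated mice. The young groups did not overlap, and the log2 difference was -0.999 (SE 0.21, adjusted p = 0.00206) and -1.29 on the shared slide. It was called under 6 of 7 scalings, the exception being normexp background correction (-0.41, adjusted p = 0.521), and it was not called in 1 fit of all 24 arrays (adjusted p = 0.304), whose shared spread includes the wide old groups. In old unirradiated mice it ran from 4.79 through 5.03 to 9.30, all above the young mice, and 2 mice stood far above the other 4. Those were mice 1 and 6, at 9.18 and 9.30, where the other 4 lay between 4.79 and 5.14. In old irradiated mice it ran from 1.40 through 3.74 to 4.25, all below the unirradiated old mice, with a log2 difference of -3.19 (SE 0.92, 9.14-fold lower, adjusted p = 0.0174) and -3.02 on the shared slide. This fall depended on which mice were included for its call and in part for its size. Without old unirradiated mice 1 and 6 it was -1.75 (adjusted p = 0.0682), with each very similar pair averaged it was -2.30 (adjusted p = 0.0700), and it lost its call when old unirradiated mouse 1 or 6 or old irradiated mouse 1, 3, 4 or 6 was left out (log2 differences -3.33 to -2.60, adjusted p up to 0.0399, unadjusted p above 0.005). Under all 7 scalings *Gzmm* was lower in irradiated old mice (-3.40 to -1.95), but the fall was called with the array median alone.

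The age difference of *Gzmm* in unirradiated mice did not rest on mice 1 and 6. Without them it was 2.24 (adjusted p = 6.80e-06), and with the pairs averaged 3.10 (adjusted p = 0.00134). In irradiated mice the 2 ages overlapped and the log2 difference of 1.49 (SE 0.51, adjusted p = 0.125) was not called.

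*Gzmk* encodes granzyme K, a tryptase close to granzyme A that memory CD8 T cells carry, and its results turned on which of a pair of probes was read. Both match the minus strand of chromosome 13 in the mm9 coordinates of the array design. Probe A_55_P2042331, the one used above because its mean over all 24 arrays was higher, lies at chr13:113961816-113961875, and probe A_66_P140238 spans chr13:113970774-113971087, more bases than its 60 and so across a gap in the genome. The first 30 bases of the former and the whole of the latter are shown because these letters decide what each probe binds; no capitals are used.
A_55_P2042331: cgttcatcctaaataaaatgtggacgtctg
A_66_P140238: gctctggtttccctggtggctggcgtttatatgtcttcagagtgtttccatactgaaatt

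The choice of probe was not independent of age, since A_55_P2042331 read higher than A_66_P140238 in old mice (mean levels 4.09 against 1.54 without irradiation) and lower in young mice (2.01 against 2.88).

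On probe A_55_P2042331 the level of *Gzmk* ran from 1.38 through 2.11 to 2.63 in young unirradiated mice, from -1.29 through 1.68 to 1.87 in young irradiated mice, from 2.00 through 4.33 to 6.30 in old unirradiated mice and from 2.93 through 4.25 to 6.25 in old irradiated mice. Old irradiated mice lay above all young irradiated mice, and 4 of 6 old unirradiated mice lay above all young unirradiated mice. The age difference was 2.07 without irradiation (SE 0.58, adjusted p = 0.00514) and 3.60 with it (SE 0.66, adjusted p = 0.0229). The former lost its call when any 1 of young unirradiated mice 1, 2, 3, 4 and 6 or of old unirradiated mice 1, 3 and 6 was left out (log2 differences 1.91 to 2.11), and with the pairs averaged (2.02, unadjusted p above 0.005). The latter lost it without young irradiated mouse 3 and with the pairs averaged (3.63, adjusted p = 0.116). The irradiation difference was called in neither age (log2 differences -0.95 and 0.58, adjusted p = 0.122 and 0.565).

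Probe A_66_P140238 gave the opposite order of ages. It ran from 1.67 through 3.01 to 3.84 in young unirradiated mice and from 1.30 through 1.49 to 1.98 in old unirradiated mice, with some overlap. The log2 difference was -1.34 (exact permutation test, two-sided p = 0.00433, n = 6 and 6), and limma on all genes with this probe for *Gzmk* gave an adjusted p of 0.00105. In irradiated mice it was 0.71 lower in old mice by log2 (adjusted p = 0.455, 5 young mice, since 1 spot was not uniform). Across 23 arrays the 2 probes correlated at r = -0.22, and at 0.48 after each group's mean was subtracted. The probes thus differed in how they ordered the groups and also, in part, in how they ordered mice within groups. The direction of *Gzmk* with age thus depended on the probe. For *Nkg7* and *Eomes*, which also had 2 probes each, the second probe kept the direction of every comparison. It correlated with the first at 0.97 and 0.94 over 24 arrays, and at 0.96 and 0.89 after each group's mean was subtracted.

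**Figure D3:**
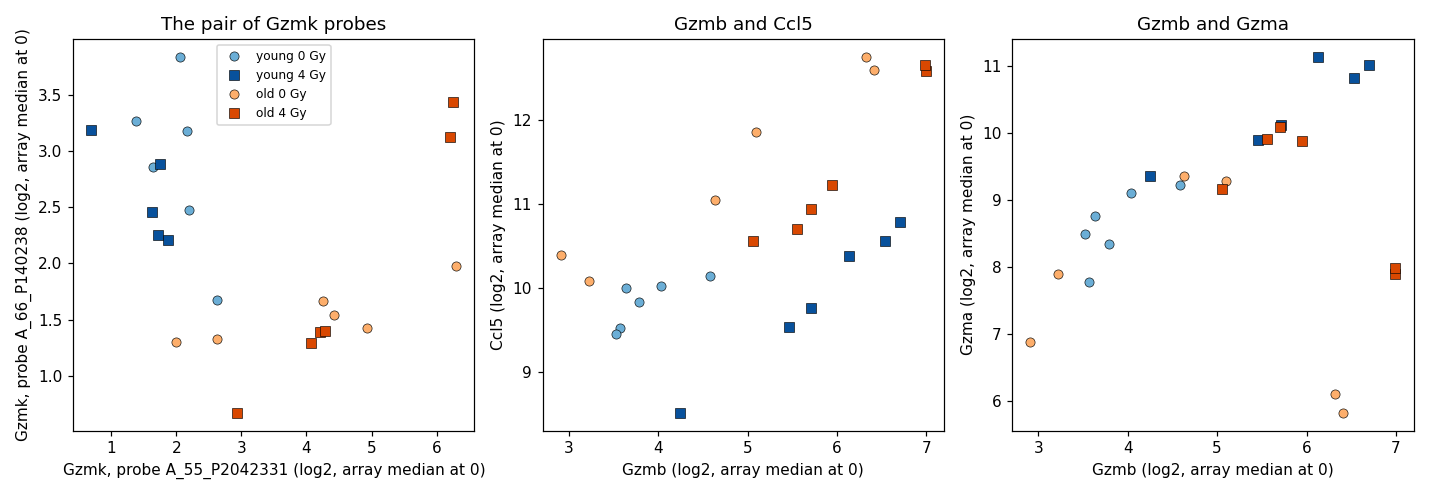
Levels (log2, array median at 0) of the pair of *Gzmk* probes, of *Gzmb* against *Ccl5* and of *Gzmb* against *Gzma*, 1 point per mouse and a colour and symbol per group. In the plot of pairs most old mice lie right of young mice but lower on the second *Gzmk* probe (young irradiated mouse 4 has no value there), *Gzmb* and *Ccl5* rise together within groups, and *Gzma* rises with *Gzmb* except in old unirradiated mice 1 and 6 and old irradiated mice 4 and 6.

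*Prf1* encodes perforin, and *Nkg7* a granule membrane protein needed for release. Neither was called in any of the 4 comparisons. *Prf1* lay between 4.06 and 6.25 in all 24 mice, and its log2 differences ran from -0.22 between irradiated ages to 0.55 after irradiation of young mice (SE 0.32, adjusted p = 0.178). *Nkg7* ran from 7.38 through 7.76 to 7.997 in young unirradiated mice and from 7.78 through 8.72 to 9.71 in old unirradiated mice. Of the old mice 4 lay above every young mouse, and the log2 difference of 1.003 (SE 0.32, adjusted p = 0.0117 by limma) was not called because its unadjusted p was above 0.005. It was called without old unirradiated mouse 4 (1.18) or 5 (1.20) and with slide as a random block (1.02). It was 0.36 to 1.003 under the 7 scalings. After irradiation of young mice *Nkg7* differed by 0.69 (SE 0.30, adjusted p = 0.0766).

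*Eomes* (probe A_55_P2150717, chr9:118394425-118394484, plus strand) directs NK cell maturation and CD8 memory. It ran from 2.56 through 3.10 to 3.69 in young unirradiated mice and from 3.64 through 5.09 to 6.63 in old unirradiated mice. Of the old mice 5 of 6 were above all young mice, and the log2 difference was 1.99 (SE 0.48, 3.97-fold, adjusted p = 0.00209). Without old unirradiated mice 1 and 6 it was 1.29 and still called (adjusted p = 0.00743). Its log2 difference after irradiation was 0.53 in young mice (SE 0.35) and -0.83 in old mice (SE 0.51), neither called. *Tbx21*, whose product T-bet switches on *Ifng*, was called in no comparison. Its largest differences were 0.79 after irradiation of young mice (SE 0.34, adjusted p = 0.0753) and 0.66 between unirradiated ages (SE 0.32, adjusted p = 0.0791).

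*Ifng* encodes interferon gamma, the cytokine that activates macrophages and raises antigen presentation (probe A_52_P68893, chr10:117882841-117882900, plus strand). It ran from 0.46 through 1.59 to 2.69 in old unirradiated mice and from 2.56 through 3.34 to 3.75 in old irradiated mice. Of the irradiated old mice 5 of 6 were above the highest unirradiated one. The log2 difference was 1.61 (SE 0.36, 3.05-fold, adjusted p = 0.00517), it was 1.77 on the shared slide, and it was called under 6 of 7 scalings and in all 12 fits that left out 1 mouse. The exception among the scalings was normexp background correction (0.87, adjusted p = 0.243 by limma). In young mice *Ifng* ran from 1.47 through 1.82 to 2.57 without irradiation and from 1.89 through 3.22 to 4.14 with it. Again 5 of 6 irradiated mice were above all controls. The log2 difference of 1.19 (SE 0.36, adjusted p = 0.0148) was not called because its unadjusted p was above 0.005, and it was called without young unirradiated mouse 3 or young irradiated mouse 4. The responses of the ages differed by 0.42 (SE 0.52, adjusted p = 0.598). Neither age contrast was called.

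*Ccl5* encodes a chemokine made and stored by memory CD8 T cells and NK cells that draws leukocytes (probe A_52_P638459, chr11:83339296-83339355, minus strand). It ran from 9.46 through 9.92 to 10.15 in young unirradiated mice and from 10.09 through 11.44 to 12.75 in old unirradiated mice. Among old mice 5 of 6 were above all young mice, with a log2 difference of 1.62 (SE 0.42, 3.07-fold, adjusted p = 0.00309). That call was lost without old unirradiated mice 1 and 6 (1.01, unadjusted p above 0.005). Irradiated mice showed a similar log2 difference that was not called, 1.52 (SE 0.48, adjusted p = 0.107). Irradiation left differences of 0.09 in young mice (SE 0.33) and -0.01 in old mice (SE 0.54).

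**Figure D4:**
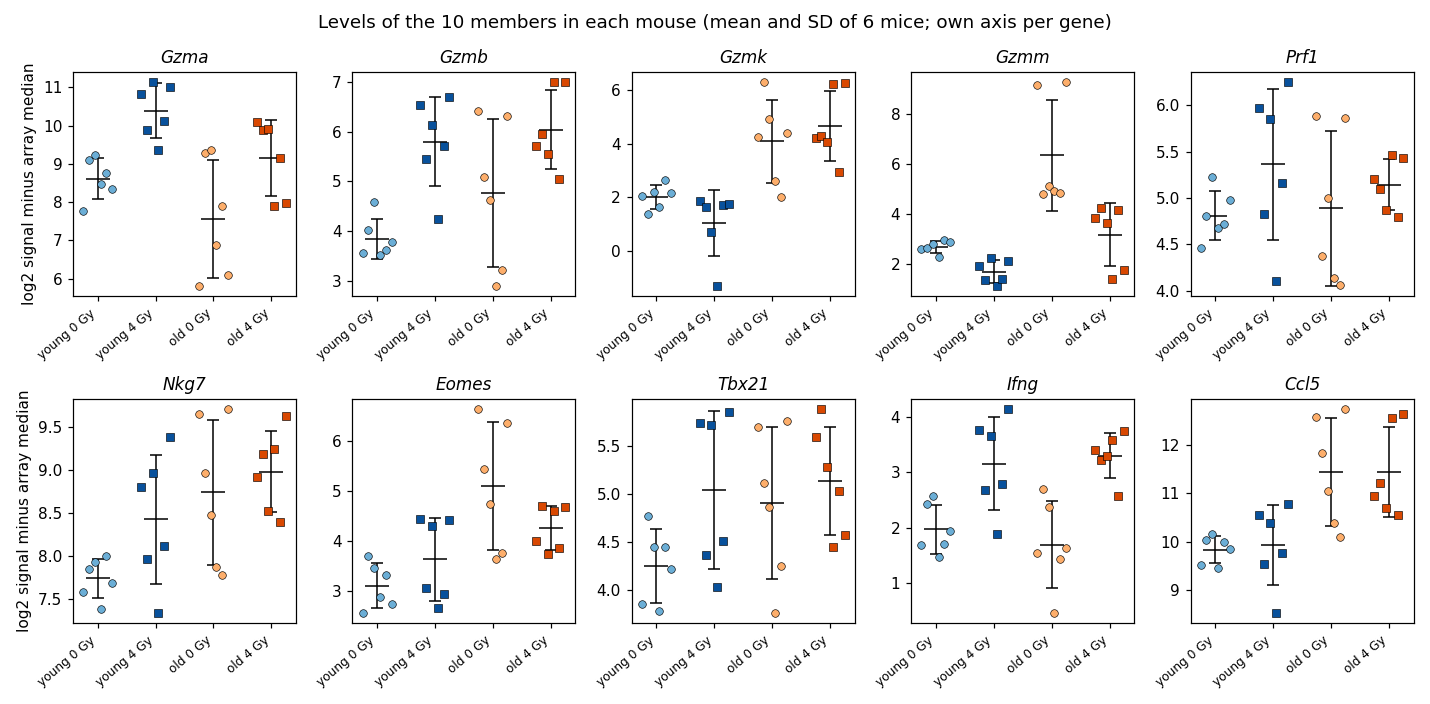
Level of each member in each of the 24 mice, with the mean and SD of the 6 mice of a group and an axis of its own for each gene. The plot by mouse shows *Gzma* and *Gzmb* shifted upward in irradiated young mice, *Gzmm* far apart in 2 old unirradiated mice, and *Ifng* higher in irradiated mice of both ages.

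Young irradiated and old unirradiated mice differed from mice of their own group more in most of these genes than in the typical gene. The median SD of the members was 0.39 in young unirradiated, 0.83 in young irradiated, 1.19 in old unirradiated and 0.68 in old irradiated mice, where the median SD of all genes was 0.31, 0.46, 0.36 and 0.86. All 10 members were above that median in old unirradiated mice, 9 of 10 in young irradiated mice, 6 of 10 in young unirradiated mice and 4 of 10 in old irradiated mice.

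Among old unirradiated mice, mice 1 and 6 carried the highest levels of 7 members. *Eomes* was 6.63 and 6.36 in them and 3.64 to 5.43 in the other 4, *Ccl5* 12.59 and 12.75 against 10.09 to 11.85, and *Gzmb* 6.41 and 6.32 against 2.91 to 5.09. *Prf1*, *Nkg7* and *Tbx21* were likewise above the other 4 mice without overlap. *Gzma* went the other way, 5.82 and 6.09 against 6.87 to 9.35, while *Gzmk* and *Ifng* lay inside the range of the others. The mean of the CD8 T cell markers was also highest in these 2 mice, at 1.32 and 1.33 log2 units above the young unirradiated mean against -0.78 to 0.12 in the others, and that of the T cell markers 0.97 and 1.11 against -0.52 to 0.15. A probe for T cell receptor beta variable 1, picked after its values were seen, read 6.50 and 6.45 in these 2 mice and at most 2.02 in the others. It had the largest such gap of the T cell receptor probes. In most of the rest these 2 mice were not both above the other 4, and some probes went the other way. Beta variable 3, for example, read 0.11 and 0.29 in these 2 mice and 1.65 to 3.31 in the others. The part of these cells in the levels was not tested.

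Among old irradiated mice, mice 4 and 6 had the highest *Gzmk* on the brighter probe (6.21 and 6.25), the highest *Gzmb* (6.99 in both) and the highest *Ccl5*, and the lowest *Gzma* (7.90 and 7.98) and *Gzmm* (1.40 and 1.74). Their CD8 T cell markers averaged 1.17 and 1.47, against -1.18 to -0.68 in the other 4, and their naive T cell markers -3.39 and -3.28, against -0.86 to -0.70. Their NK cell markers averaged -0.12 and -0.14, against 1.05 to 1.88 in the other 4, and their monocyte markers -1.55 and -1.48, against 0.51 to 1.23. The part of these cells in the levels of the members was not tested. These were also the 2 arrays with the lowest median signal, 8.66 and 8.84 units.

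Young irradiated mice 2, 4 and 5 and old irradiated mice 2, 3 and 5 had hepatocyte markers 5.45 to 6.89 log2 units above the young unirradiated mean over 10 genes, where the other 6 irradiated mice had -0.80 to 0.62 and unirradiated mice -2.74 to 2.89. Of the 14 hepatocyte markers on the array, *Alb*, *Apoa1*, *Ttr* and *Cps1* did not pass the filter on dim spots. In young irradiated mice 9 of 10 members, all but *Gzmk*, were lower in those 3 mice than in the other 3 without overlap. *Eomes* was 2.65 to 3.05 against 4.29 to 4.43, *Tbx21* 4.03 to 4.51 against 5.73 to 5.86, and *Ifng* 1.89 to 2.79 against 3.66 to 4.14. In old irradiated mice this held for *Prf1* and *Ifng* alone. With all 6 of those arrays left out, a choice made after seeing the data, 8 members were called after irradiation of young mice, against 32.9% of all genes called in either direction. They were *Gzma* (2.38), *Gzmb* (2.60), *Prf1* (1.22), *Nkg7* (1.31), *Eomes* (1.28), *Tbx21* (1.52), *Ifng* (1.89) and *Ccl5* (0.74), all higher, while *Gzmm* was -0.60 and no longer called. The dropped young mice were the lower 3 in 9 of 10 members, so leaving them out raises the irradiated mean of those members by construction. The young irradiated mice kept were 1, 3 and 6, which include the very similar pair 1 and 6. In old mice the same choice left *Ifng* called (1.88) and *Gzmm* not called (-4.03, unadjusted p above 0.005). The part of the hepatocyte transcripts in these levels was not tested.

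**Figure D5:**
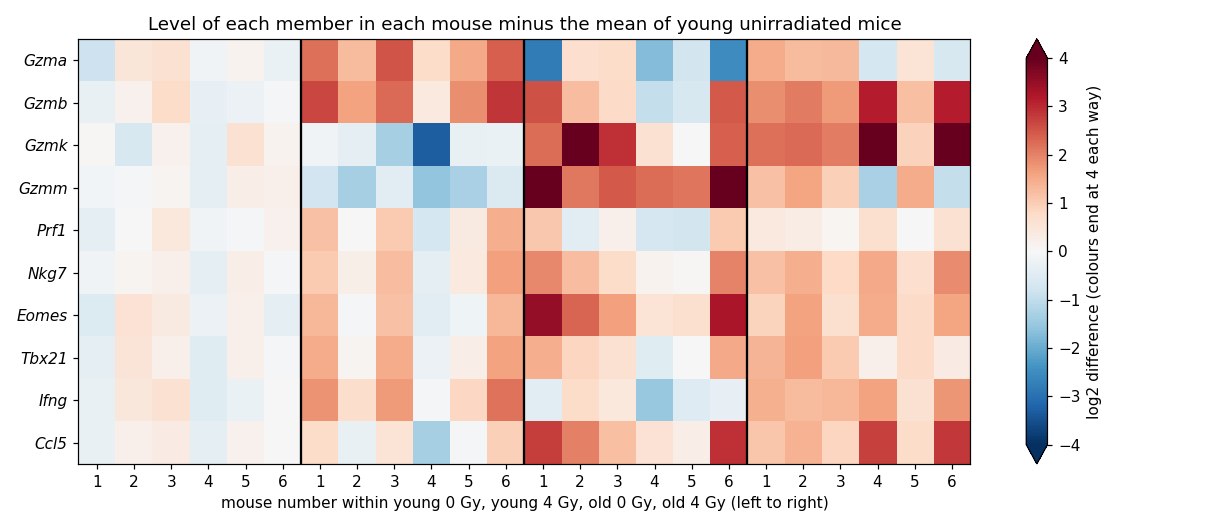
Level of each member in each mouse minus the mean of young unirradiated mice (log2, colours end at 4 each way), with mice in order of their number within the 4 groups from left to right. The colour plot shows *Gzmm* strongest in old unirradiated mice 1 and 6, *Gzmk* strongest in old mice, and lower values of most members in young irradiated mice 2, 4 and 5.

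Within groups the members fell into different patterns. After each group's mean was subtracted, the 15 pairs among *Prf1*, *Nkg7*, *Gzmb*, *Eomes*, *Tbx21* and *Ccl5* correlated at 0.53 to 0.96 over 24 arrays. This did not hold for *Tbx21* within old irradiated mice, where it correlated at -0.71 to -0.24 with the other 5 and at 0.93 with *Gzma*. *Gzma* stood apart, at -0.24 to 0.33 with these 6 genes and 0.52 with *Ifng*. This was a matter of the old mice: *Gzma* and *Gzmb* correlated at 0.75 within young unirradiated and 0.92 within young irradiated mice, and at -0.35 and -0.78 within old unirradiated and old irradiated mice, where the 2 mice of each very similar pair were highest in *Gzmb* and lowest in *Gzma*. These points share each array's scaling and include the 4 very similar pairs, so the coefficients are descriptions.

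Against the mean of other cells' markers, measured the same way, *Gzma* correlated at 0.63 with NK cell markers, -0.32 with T cell markers and -0.48 with CD8 T cell markers. *Gzmb*, *Nkg7* and *Ccl5* correlated at 0.89 to 0.91 with T cell markers, and *Tbx21* at 0.82 with NK cell markers. *Gzmm* lay between, at 0.53 with NK and 0.43 with T cell markers.

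The genes whose pattern was most like each member's, among the 10376 genes measured well above background in all 24 mice and again with group means subtracted, followed the same division only in part. For *Gzma* they were the NK receptors *Klrb1b* and *Ncr1*, both at r = 0.94, after an unnamed probe, A_55_P2011341 (r = 0.99), that covers 54 of the bases of the *Gzma* probe. For *Gzmb*, *Nkg7* and *Ccl5* the likest gene was *Cst7*, a cystatin of the granule pathway, at 0.94, 0.94 and 0.95. The next for *Gzmb* were *Ncapd2*, of the condensin complex (0.91), and *Unc5cl* (0.90). The likest gene for *Prf1* was the T cell co-receptor *Cd28* (0.94) and for *Gzmk* the transcription factor *Tox* (0.89). *Eomes* was most like *Rasl12* (0.92), followed by *Fasl*, the Fas ligand (0.91). *Gzmm* was most like *1700025G04Rik* (0.95), followed by the receptor *Crtam* (0.92). *Tbx21* was most like *Kcnip3* (0.93), *Rab19* (0.92) and *Tnfrsf18* (0.91), none of them among the NK cell markers. *Ifng* was most like *Rgs1* (0.86). The mean of the 10 members was most like *Il12rb1*, a chain of the interleukin 12 receptor (0.97).

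T-box factors bind sites built around the letters GTGTGA, and promoters of members are shown to let those letters be seen. In RefSeq promoter sequences (build GRCm38.p6), which covered 9 of the 10 members with 10 promoters, GGTGTGA occurred on either strand within 250 bases before the start in 3 of 10 promoters, those of *Gzmk*, *Nkg7* and one of a pair for *Gzmm*, and in 3.33% of the 32851 promoters in the table. The shorter GTGTGA, which lies inside it, occurred in 4 of 10, with *Gzmb* added, and in 12.3% of all. The 100 bases before the start are printed with those letters, or their reverse complement, in capitals. For *Gzma* they are chr13:113100982-113101081 (minus strand), for *Gzmb* chr14:56262335-56262434 (minus), for *Gzmk* chr13:113180966-113181065 (minus) and for *Nkg7* chr7:43437038-43437137 (plus). A match of letters is not a measured site.
Gzma: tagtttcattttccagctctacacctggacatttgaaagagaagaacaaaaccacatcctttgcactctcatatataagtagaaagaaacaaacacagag
Gzmb: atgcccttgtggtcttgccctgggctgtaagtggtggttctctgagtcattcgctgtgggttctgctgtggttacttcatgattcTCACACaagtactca
Gzmk: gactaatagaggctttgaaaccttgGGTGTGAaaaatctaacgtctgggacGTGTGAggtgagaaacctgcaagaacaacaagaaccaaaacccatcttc
Nkg7: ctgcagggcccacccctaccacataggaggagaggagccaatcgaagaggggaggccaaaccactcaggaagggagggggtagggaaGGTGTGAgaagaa

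A further 72 genes of the program, of which 62 were tested, were read from lists of granule, receptor, transcription factor and target genes. In whole blood their signal comes from every cell type that carries them, and which cells these were was not tested. In young mice 25 of them (40.3%) were called higher after irradiation and 7 (11.3%) lower, beside 14.3% and 21.1% of all genes, with a median log2 difference of 0.76 where that of all genes was -0.20. Of 12 genes for granule maturation and release, 8 rose and none fell, among them *Srgn*, the proteoglycan that packs granzymes (1.61, adjusted p = 0.000251), *Lamp1*, a granule membrane protein (1.56), and *Stx11*, a fusion protein (1.89). *Gzmc*, the only other granzyme tested, was higher by 1.19 (adjusted p = 0.0109). Of the 4 death ligands *Fasl* rose by 1.75 and *Lta*, lymphotoxin alpha, fell by 1.83. Among 19 genes of the interferon gamma receptor and its targets 5 rose and 3 fell, with a median of -0.07, and *Igtp*, an interferon-induced GTPase, rose by 1.98. Of 8 receptors and cytokines acting before the T-box factors *Il15* (1.70) and *Il18* (1.21) rose and *Il15ra* fell by 0.63.

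In old mice 4 of the 62 (6.45%) were called higher after irradiation and 6 (9.68%) lower, shares that are no larger than the 7.49% and 17.4% of all genes. The difference between the responses of old and young mice was called in 0 of the 62, so the unlike counts do not show a different response. *Srgn* (1.26), *Stx11* (1.62), *Igtp* (1.75) and *Xcl1*, a chemokine of NK cells (1.28), rose. *Ctsc*, the protease that activates granzymes, fell by 1.73 (adjusted p = 0.00880) and *Lta* by 1.48. *Ciita*, which drives class II genes, fell by 2.52, and the transcription factors *Irf8*, *Hopx* and *Runx3* fell by 2.95, 1.45 and 0.82. Between unirradiated ages 36 (58.1%) were called higher in old mice and 1 (1.61%) lower, on the array median scale described above, where 48.4% and 15.4% of all genes were. Those included *Il18r1*, the interleukin 18 receptor (1.85), *Stat4* (1.02) and *Tnf* (0.96). Between irradiated ages *Tox*, a factor of exhausted and memory T cells, was the 1 gene beside *Gzmk* called higher (1.91, adjusted p = 0.0407).

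Markers of blood cell types moved with irradiation too. In young mice 9 of 12 NK cell markers rose and none fell, and their mean, in log2 units above the young unirradiated mean, ran from 0.27 to 2.02 in irradiated mice and from -0.68 to 0.58 in controls. At the same time 9 of 11 T cell markers, both CD8 T cell markers and 6 of 8 naive T cell markers fell, with T cell means of -2.25 to -0.56 in irradiated mice and -0.29 to 0.20 in controls. All 10 B cell markers fell. All 7 platelet markers rose at both ages, with a median log2 difference of 1.86 in young and 1.88 in old mice. Of 12 neutrophil markers 5 rose and 0 fell in young mice, and none was called in old mice. Of 8 monocyte markers 2 rose and 1 fell in young mice, and 1 rose and 3 fell in old mice. In old mice 1 of 12 NK cell markers rose, none of the 11 general T cell or 2 CD8 T cell markers was called, and 5 of 8 naive T cell markers and 9 of 10 B cell markers fell. Of the gamma delta T cell markers only 2 were tested, *Sox13* and *Blk*, and 1 of the 2 fell. *Blk* is also among the B cell markers, so this is not a separate result for gamma delta T cells. Between unirradiated ages 2 of 12 NK cell markers were called higher in old mice, where 48.4% of all genes were. Their median log2 difference was 0.59, beside 0.63 for all genes. In the same comparison 1 of 11 T cell markers was called lower, where 15.4% of all genes were. How much of the difference of each member or listed gene went with these cells was not tested.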

How the data were processed

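Per the labels, total RNA of each blood sample was labelled with Cy3 and hybridised to a 1-colour Agilent mouse array, and the authors extracted spots with Agilent Feature Extraction 12.0.2 (submitters' processing notes). The deposited scanner files hold intensity per spot (background-subtracted and detrended by the scanner software) with flags for spots that are uniform or well above background. The authors' own table holds log2 values; by the paper's methods these were median-normalized, and the table was used as an alternative only. No count of reads exists for arrays, so precision is limited by the number of mice.

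From the intensity, log2 values were taken and each array's median over 43020 non-control spots was subtracted. Spots that were not uniform were left out. Probes dim or not uniform in at least 25% of arrays were dropped, as were those with under 20% of arrays (5) at 1.5-fold from the probe's median, and the brightest probe stood for a gene. This left 22482 probes and 17802 genes, from 39429 probes. Each comparison was fitted with limma 3.58.1 (R 4.3.3) on its own 12 arrays and the difference of responses on 24, with Benjamini-Hochberg adjustment over all genes tested. Exact permutation tests were two-sided over the 924 splits of 6 against 6 (smallest p 0.00216). Standard errors are limma's. The script was tested on simulated data.

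The members, lists and comparisons were chosen with earlier results of these data known. Genes named beyond the members were, of each list, the 3 with the highest mean level and all called genes where at most 3 were called, and the 3 genes whose values correlated best with a member. Alternatives covered scaling (75th percentile, probes above background, quantile, spike-in controls, normexp), filters, probe choice, tests, slide or replicate block and left-out mice. Groups and ages came from the sample titles, and each replicate number was taken to name a different mouse. p-values measure the spread between mice. Gene positions are those of the array design (mm9), and exon or UTR annotation was not used here. Some genes of the lists are not reported here.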

Additional observations from a re-analysis of the deposited data

Results flagged for a closer look

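Of 52 combinations of a probe and a group of 6 mice, 1 had a mouse far from the others, where chance alone would flag about 1 in 20. On probe A_55_P2042331 for *Gzmk*, young irradiated mouse 4 read -1.29, while the other 5 mice of its group read 0.70 to 1.87. The gap to its nearest neighbour was 0.629 of the group's range, and this probe was not well above background in that mouse. Mouse 4 also had the highest hepatocyte markers of all 24 mice and the lowest *Gzmb* of its group. The difference between the responses of old and young mice was called for no member.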

How the results depend on the processing

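The number of members called after irradiation of young mice was 3 and became 6 with slide as a random block and 8 without the 6 irradiated arrays highest in hepatocyte markers, 2 with normexp, 4 with the median over probes above background on all arrays, the filter on probes above background in 1 group or limma with a variance trend, and was 3 to 5 with 1 mouse left out. In old mice the 2 calls became 1 with the 75th percentile, with the median over probes above background on all arrays, with quantile or spike-in scaling, in the authors' table, with very similar arrays averaged, without old irradiated mice 4 and 6 and without the 6 hepatocyte-high arrays, 0 with normexp, and 1 to 2 with 1 mouse left out. Between unirradiated ages the 4 calls became 1 with the 75th percentile, probes above background, quantile scaling or the authors' table, 2 with spike-ins or without old unirradiated mice 1 and 6, 0 with normexp, and 3 to 5 with 1 mouse left out. Between irradiated ages the 1 call became 0 with the 75th percentile, the authors' table, a gene's probes averaged, the dimmer *Gzmk* probe, averaged arrays or no hepatocyte-high arrays, 2 in 1 fit of all 24 arrays, with slide as a random block or without old irradiated mice 4 and 6, and 0 to 1 with 1 mouse left out. With the dimmer probe *Gzmk* reversed to -1.34 between unirradiated and -0.71 between irradiated ages. The difference of responses called 0 members in every alternative run. Replicate numbers were taken to name different mice and not to pair them. A replicate block gave 4, 1, 3, 0 and 0 members called in the 5 comparisons in the order given. Over all genes, calls ranged from 7.09 to 49.8% in young and from 0.0678 to 40.3% in old mice after irradiation, from 0 to 72.5% between unirradiated and from 0.0112 to 28.4% between irradiated ages; the cause was not tested. The averaged arrays, the mice left out in sets and the dimmer probe were chosen after seeing the data. The count of 8 in young mice follows in part from the choice itself, since the young mice dropped were lower in 9 of 10 members. Signals near the array median lie close to background, which limits *Gzmk* and *Gzmm* in young mice, *Ifng* in unirradiated mice and the second *Eomes* probe. With normexp the irradiation calls of *Gzmm* in young mice (log2 difference -0.41) and of *Ifng* in old mice (0.87) were lost.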
